A study of Mus musculus with 36 samples.

Results

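Dendritic cells (DCs) sorted for thrombomodulin (TM) after culture with soluble TM (sTM) were compared, TM+ DCs against TM- DCs, within each of 3 experiments. The 12 arrays of this comparison were chosen from the sample titles and are part of 36 in the series. Each of experiments 2, 3 and 4 gave 2 arrays of TM+ and 2 arrays of TM- DCs. Both fractions came from the same kind of culture: bone marrow of Balb/c mice aged 10 to 12 weeks, grown for 6 days with GM-CSF (granulocyte-macrophage colony-stimulating factor, 100 ng/ml), with 200 nM recombinant human sTM, the extracellular domains alone, present from day 4. On day 6 the cells were split with a rat antibody against TM and magnetic microbeads into fractions whose stated purity was above 93%. The series also holds 8 arrays of TM+ and TM- DCs from cultures without sTM, in experiments 3 and 4, and 16 arrays of unsorted DCs. The titles call the 2 arrays of a fraction and experiment biological replicates. The sources used here do not say whether they came from separate cultures or mice, so the spread between them may be technical. P-values of the test of variation between experiments rest on that spread. Those of the calls over the 3 experiments also take in variation of the difference between experiments. They still count arrays, not experiments, as units.

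Thrombomodulin is a membrane protein of endothelium that binds thrombin and turns it from clotting towards activation of protein C. It is also found on some DCs, where it is known as CD141. DCs take up antigen and, on maturation, raise costimulatory molecules, cytokines and the chemokine receptor that guides them to lymph nodes. Bone marrow cultured with GM-CSF yields a mixture of dividing precursors, monocyte-derived cells with macrophage features and maturing DCs.

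Values are given as levels, the log2 of the array intensity, and as differences, the mean level of the TM+ arrays minus that of the TM- arrays within an experiment. The log2 fold change is the estimate of limma's model over the 3 experiments with its standard error (SE), and a gene was called higher or lower in TM+ DCs at a Benjamini-Hochberg adjusted p under 0.05 over 19938 genes. In bulk samples fewer cells of a type and less RNA per cell cannot be told apart. The transcript of TM itself, *Thbd*, did not separate the fractions. Its level ran from 5.84 to 6.26 (median 6.12) in TM+ DCs and from 5.75 to 6.50 (median 5.95) in TM- DCs, and the groups overlapped. The difference was -0.21, 0.11 and 0.28 in experiments 2, 3 and 4, with a log2 fold change of 0.06 (SE 0.15, adjusted p = 0.78), and -0.047 without experiment 4, and it was not called. For comparison, the median level of all genes over these 12 arrays was 7.02 and the 25th percentile 5.72.

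The cells carried DC transcripts. *Itgax*, which encodes CD11c, ran from 12.11 to 12.35 (median 12.19) in TM+ DCs and from 11.77 to 12.21 (median 11.79) in TM- DCs. The groups overlapped, and its log2 fold change was 0.36 (SE 0.08, adjusted p = 0.00404). That call was lost without experiment 2 (0.32, adjusted p = 0.0534). *Cd24a*, a marker of conventional DCs and of precursors, ran from 11.44 to 12.82 (median 11.97) in TM+ DCs and from 9.50 to 11.34 (median 10.47) in TM- DCs, without overlap, and was 3.01-fold higher in TM+ DCs. Of 16 conventional DC markers, 8 were higher and 2 lower. The 2 lower were *Batf3* and *Zbtb46*, against the direction of *Itgax* and *Cd24a*. Of 15 monocyte and macrophage markers 6 were higher and 1, *Cd14*, lower, where 11.6% of all genes tested were called higher and 12.4% lower. Neutrophil and granule genes were higher for 8 of 20 and lower for none, with a summed linear intensity of 27151 to 35498 in TM+ arrays and 22407 to 34027 in TM- arrays. Eosinophil, mast cell and basophil genes were higher for 4 and lower for 3 of 19, with sums of 3906 to 5173 and 2535 to 7102. B, T and NK cell markers summed to 649 to 797 in TM+ arrays and 746 to 1002 in TM- arrays, and 14 of 15 were not called.

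Arrays of one fraction and experiment correlated at Pearson's r of 0.968 to 0.996 across genes, lowest for the TM- arrays of experiment 3. Experiment 3 stood apart in the size of its falls. None of the 19938 genes was lower in TM+ DCs by 1.5 or more in experiment 3, where the lowest difference was -1.35, while 127 genes were higher by at least 1.5 and 57 by at least 2. In experiment 2, 90 genes were lower by at least 1.5 and 34 by at least 2, and in experiment 4 these counts were 267 and 142. The untreated cultures of experiment 3 had 203 genes lower by at least 1.5 and 106 by at least 2.

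Genes with a large difference in experiment 2 or 4 were also read in experiment 3, where a smaller difference is in part set by that choice. Of 155 genes lower by at least 2 in experiment 2 or 4, 149 were lower in experiment 3 also, 38 by 1 or more. Their median level in the TM+ arrays was 8.25 and 8.42 in experiment 2, 9.44 and 9.56 in experiment 3, and 7.47 and 7.30 in experiment 4, against 9.43 and 9.53, 10.44 and 10.09, and 10.25 and 10.23 in the TM- arrays. The median difference of these genes was -1.10, -0.77 and -2.40 in experiments 2, 3 and 4, and -2.01 in the untreated cultures of experiment 3. Of 242 genes higher by at least 2 in experiment 2 or 4, 226 were higher in experiment 3, 165 by at least 1 and 51 by at least 2. The medians of these rises were 1.33, 1.35 and 2.30. *Hamp*, which encodes the iron hormone hepcidin, was the lowest gene in experiments 2 and 4 and was chosen after its values were seen. Its linear intensity in TM+ DCs was 32 and 30 in experiment 2, 774 and 850 in experiment 3, and 33 and 25 in experiment 4, against 2124 and 2491, 1600 and 609, and 5918 and 5721 in TM- DCs. TM+ and TM- arrays overlapped for *Hamp* in experiment 3 alone. The difference was -6.21, -0.28 and -7.65, the log2 fold change -4.72 (SE 0.84, adjusted p = 0.000341), and the difference itself varied between experiments (limma F test, adjusted p = 1.82e-07). Counts without experiment 3 are therefore also given for all genes tested and for the cell division and ribosome lists. They are given too for the maturation, cytokine, chemokine, NF-kappaB and interferon lists, and for a few other lists.

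Over the 3 experiments, 2311 genes were called higher in TM+ DCs (11.6% of those tested) and 2481 lower (12.4%), 4792 in all (24.0%). At an unadjusted p under 0.05 these counts were 3178 and 4646. Without experiment 3 they were 3062 and 2421, and without experiment 4 they were 1136 and 768. With 1 mean per fraction and experiment (3 against 3), 112 genes were called higher and 12 lower. Higher genes made up 48.2% of the calls, but 36.3% (2120 and 3718) when arrays were centred at their 75th percentile, and 52.3% (2174 and 1979) when they were quantile normalized. Of the called genes, 4491 of 4792 had the same sign in the 3 experiments, as did 10196 of all 19938 genes tested. The calls rest on these same differences, so the agreement of called genes is in part set by that choice. The 2 TM+ and the 2 TM- arrays lay apart, on the same side, in each experiment for 1678 genes higher (8.42% of genes tested) and 1721 genes lower (8.63%), and all 6 TM+ arrays lay beyond all 6 TM- arrays for 653 higher (3.28%) and 417 lower (2.09%).

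Large differences shared by the 3 experiments were mostly rises. Among called genes 449 were higher and 233 lower by a log2 fold change of at least 1, and 162 of the former and 29 of the latter reached 1 in every experiment. At 2 or more these counts were 63 and 22, and 19 and 0 in every experiment. The lowest difference in experiment 3 was -1.35, so no gene could be lower by 2 in every experiment. By at least 2, 72 genes were higher and 34 lower in experiment 2, and 203 and 142 in experiment 4. Across genes, the differences correlated at r = 0.452 between experiments 2 and 3, 0.587 between 2 and 4, and 0.676 between 3 and 4, and had the same sign for 61.9%, 65.7% and 74.6% of genes. These correlations describe genes measured on the same arrays, which are not independent. Experiment 4 held the largest of the 3 differences for 63.2% of the genes called higher and 44.8% of those called lower.

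**Figure D1:**
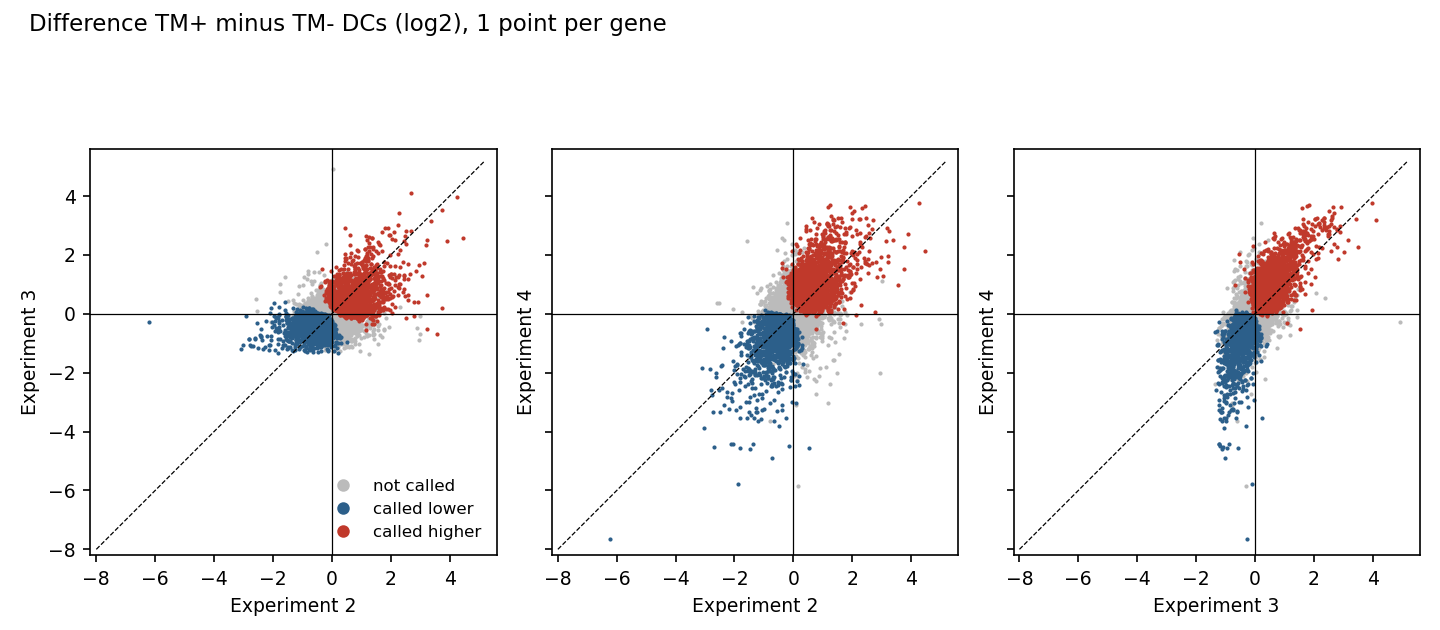
Difference between TM+ and TM- DCs (log2) in one experiment against another, 1 point per gene for 19938 genes, coloured by the call over the 3 experiments; the dashed line marks equal differences. The cloud ends near -1.35 on the axis of experiment 3 and reaches -6.21 and -7.65 on those of experiments 2 and 4, while rises reach 4.46, 4.94 and 3.77.

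Some receptors and enzymes of monocytes and macrophages were among the rises with the largest differences in each of the 3 experiments. As a list, the 15 monocyte and macrophage markers had median differences of 0.54, -0.02 and 0.48 in experiments 2, 3 and 4, and 8 of them were not called. *Ccr2*, the receptor for the chemokine CCL2 that draws monocytes out of bone marrow, ran from 9.42 to 10.88 (median 10.34) in TM+ DCs and from 5.67 to 7.17 (median 6.08) in TM- DCs. The groups did not overlap, and the differences of 4.26, 3.98 and 3.77 gave a log2 fold change of 4.00 (SE 0.19, adjusted p = 1.73e-11), or 16-fold. *Mrc1*, the mannose receptor, ran from 8.38 to 9.98 (median 9.36) in TM+ DCs and from 5.64 to 6.25 (median 6.13) in TM- DCs, again without overlap. Its differences of 3.75, 3.52 and 2.26 varied between experiments (adjusted p = 0.000767), with a log2 fold change of 3.18 (SE 0.24, adjusted p = 1.27e-08). *Alox15*, whose enzyme 15-lipoxygenase oxygenates arachidonic acid towards lipoxins, ran from 9.56 to 10.40 (median 10.04) in TM+ DCs and from 6.67 to 7.44 (median 7.29) in TM- DCs. The groups stood apart, with differences of 3.19, 2.34 and 2.93 and a log2 fold change of 2.82 (SE 0.16, adjusted p = 4.03e-10). These differences also varied between experiments (limma F test, adjusted p = 0.0447).

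*Pld4*, an endolysosomal nuclease of the phospholipase D family, differed almost equally in the 3 experiments. Its level ran from 10.24 to 10.77 (median 10.56) in TM+ DCs and from 7.63 to 8.61 (median 7.96) in TM- DCs, with no overlap, differences of 2.46, 2.49 and 2.63, and a log2 fold change of 2.52 (SE 0.15, adjusted p = 9.44e-10). *Clec4b1*, a C-type lectin receptor, was dim but as even, with levels from 6.35 to 7.17 (median 6.92) in TM+ DCs and from 4.24 to 4.94 (median 4.57) in TM- DCs and differences of 2.33, 2.17 and 2.26. *Fcrls*, an Fc receptor-like scavenger receptor, had differences of 2.68, 2.80 and 2.88 and a log2 fold change of 2.79 (SE 0.21, adjusted p = 1.27e-08), without overlap of its groups. *Ifitm6*, of the interferon-induced transmembrane family, rose 7.22-fold, with differences of 3.24, 2.52 and 2.80. *Gda*, guanine deaminase, was 8.1-fold higher, and the unnamed gene *F630028O10Rik* 8.2-fold, with differences of 3.37, 3.16 and 2.52 and 3.91, 2.48 and 2.72. *Cd93*, a surface glycoprotein of myeloid precursors that is related to TM, ran from 9.99 to 10.57 (median 10.37) in TM+ DCs and from 7.34 to 8.90 (median 7.84) in TM- DCs, without overlap, and rose by 2.26 on the log2 scale. Most progenitor markers did not share this rise. Of 12 measured, *Cd93* among them, 3 were higher, 1 (*Kit*) was lower and 8 were not called, with median differences of 0.24, -0.22 and 0.02 in experiments 2, 3 and 4. Of all genes tested, 11.6% were higher and 12.4% lower.

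Falls were ranked by the smallest of the 3 differences, and none reached 2 in every experiment, since none did so in experiment 3. The leading ones included signalling and secreted proteins. *Ramp3*, a partner protein of calcitonin-like receptors, ran from 7.85 to 9.04 (median 8.24) in TM+ DCs and from 8.999 to 10.47 (median 9.89) in TM- DCs. The 2 groups of 6 overlapped slightly, since levels differed between experiments, but within each experiment TM+ was lower, by differences of -1.53, -1.21 and -1.95, and the log2 fold change was -1.56 (SE 0.17, adjusted p = 2.32e-06). *Nppc*, the precursor of C-type natriuretic peptide, ran from 8.04 to 9.26 (median 8.15) in TM+ DCs and from 9.45 to 10.73 (median 10.06) in TM- DCs, without overlap, and its log2 fold change was -1.52 (SE 0.21, adjusted p = 2.33e-05). *Fstl1*, a secreted follistatin-like glycoprotein, had differences of -1.71, -1.15 and -1.89 and a log2 fold change of -1.58 (SE 0.22, adjusted p = 2.22e-05). *Gem*, a small GTPase of the RGK family, ran from 6.45 to 7.03 (median 6.82) in TM+ DCs and from 7.87 to 10.05 (median 9.41) in TM- DCs, with no overlap and differences of -2.49, -1.14 and -3.33. *Gadd45b*, a stress sensor, was 4.64-fold lower and *Nts*, the neurotensin precursor, 4.12-fold lower, with differences of -2.34, -1.21 and -3.10 and -3.10, -1.19 and -1.84. *Ccr4*, the receptor for CCL17 and CCL22, fell with differences of -1.94, -1.22 and -3.27 and a log2 fold change of -2.14 (SE 0.39, adjusted p = 0.00043). *Susd2*, a membrane protein with a sushi domain, had differences of -2.13, -1.23 and -4.43, and its log2 fold change of -2.60 (SE 0.47, adjusted p = 0.00045) moved to -1.68 without experiment 4.

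**Figure D2:**
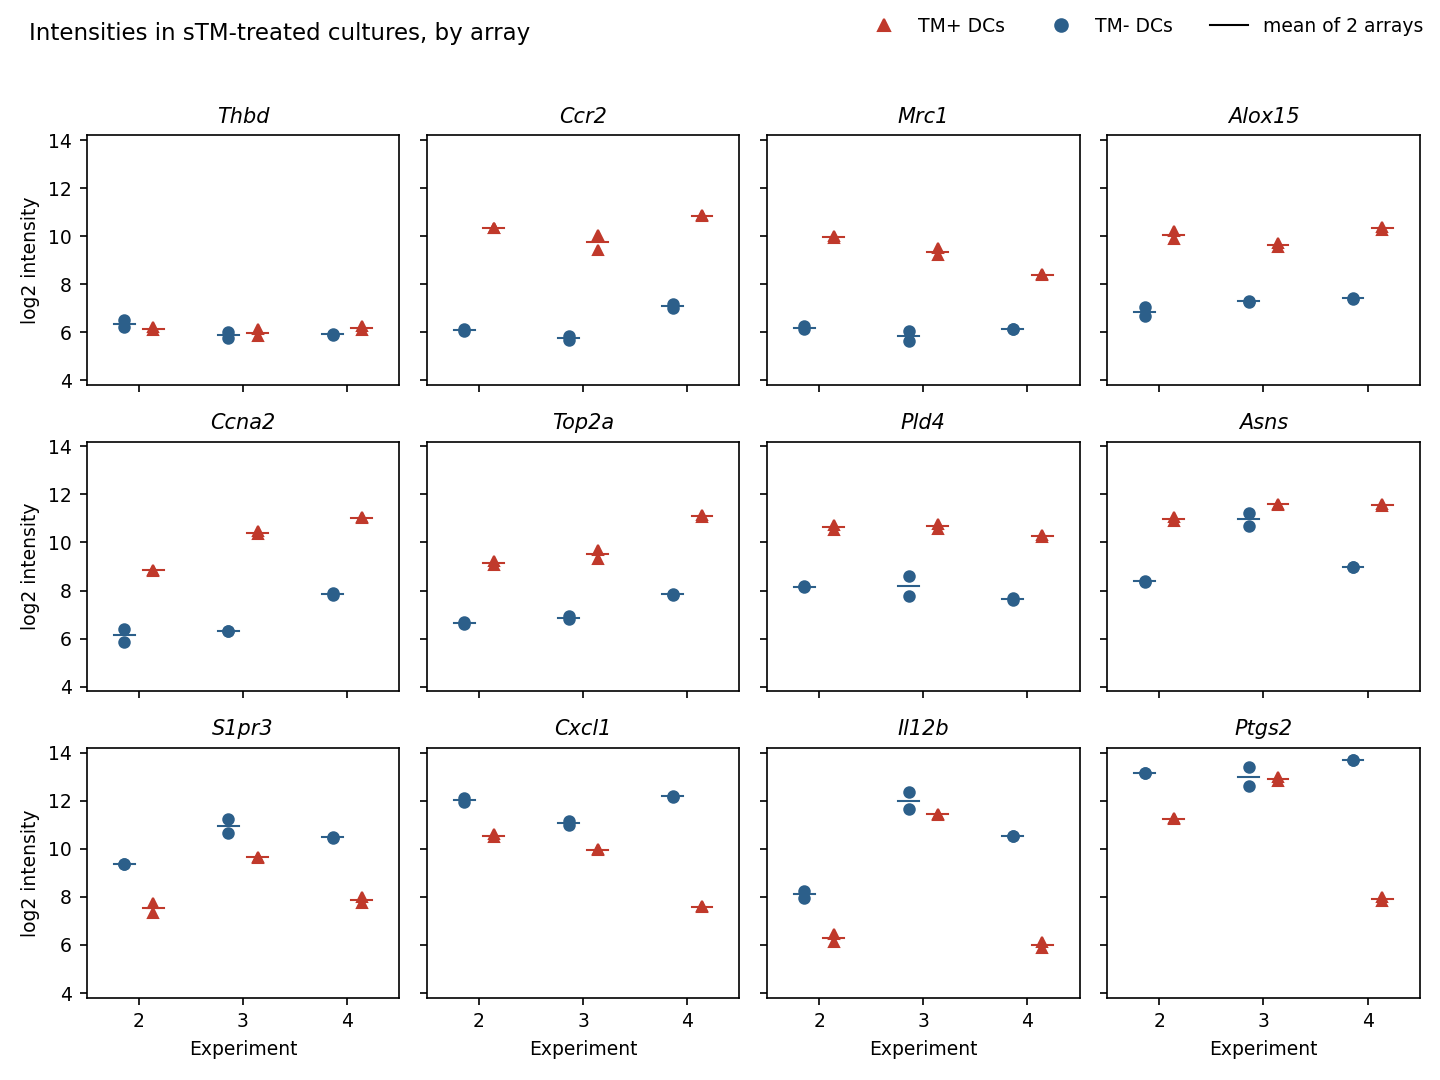
Log2 intensity of 12 genes in each array of the sTM-treated cultures, by experiment, with TM+ arrays as triangles, TM- arrays as circles and the mean of the 2 arrays as a bar. *Thbd* overlaps, and *Ccr2* and *Pld4* stand apart by similar steps in the 3 experiments. *Alox15* stands apart by 3.19, 2.34 and 2.93, and the difference of *Ptgs2* is -5.79 in experiment 4 and -0.10 in experiment 3.

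Cell division genes were higher in TM+ DCs, nearly list by list. All 27 measured genes of spindle motors, condensin and cytokinesis were called higher and none lower, and the median difference was 1.36, 1.97 and 2.81 in experiments 2, 3 and 4, where the median over all genes was -0.03, -0.12 and -0.09. Among mitotic kinases, kinetochore and spindle checkpoint genes 26 of 27 were higher and none lower (medians 1.01, 1.35 and 2.38). Among cyclins and their kinases 18 of 20 were higher and 1 lower (0.62, 0.87 and 1.51), and among genes of DNA replication and nucleotide supply 30 of 36 were higher and none lower (0.83, 0.77 and 1.30). The size of the difference varied between experiments by the F test for 25, 25, 12 and 23 members of these lists, where 14.4% of all genes did. Without experiment 3 the counts higher were 27, 25, 18 and 35. Over experiment means alone, limma called 8, 4, 4 and 6 members of these lists higher, and 27, 24, 17 and 31 at an unadjusted p under 0.05.

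The cyclins mark stages of the cycle. *Ccna2*, cyclin A2 of S phase and G2, ran from 8.83 to 11.07 (median 10.40) in TM+ DCs and from 5.87 to 7.90 (median 6.36) in TM- DCs. The groups did not overlap, with differences of 2.69, 4.10 and 3.18 and a log2 fold change of 3.32 (SE 0.29, adjusted p = 7.17e-08). *Ccnb2*, cyclin B2 of mitosis, ran from 8.17 to 11.39 (median 10.41) in TM+ DCs and from 5.73 to 8.18 (median 6.99) in TM- DCs, overlapping across but not within experiments, with differences of 2.27, 3.42 and 3.21 and a 7.82-fold rise. *Ccnd1*, cyclin D1 of G1, had differences of 2.03, 1.203 and 2.003 and was 3.36-fold higher. *Cdk1*, the kinase that drives entry into mitosis, rose by 1.74 on the log2 scale, and *Cdk2*, the kinase of the G1 to S transition, by 0.92, with differences of 1.45, 1.23 and 2.53 and 1.503, 0.23 and 1.02. *Foxm1*, a transcription factor of the G2 to M programme, had differences of 1.23, 1.90 and 2.66 and a log2 fold change of 1.93 (SE 0.22, adjusted p = 2.5e-06).

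Named genes of chromosome segregation and replication follow. *Top2a*, topoisomerase II alpha, which untangles sister chromatids, ran from 9.05 to 11.13 (median 9.50) in TM+ DCs and from 6.59 to 7.86 (median 6.87) in TM- DCs. Its groups stood apart, with differences of 2.48, 2.63 and 3.26 and a log2 fold change of 2.79 (SE 0.22, adjusted p = 2.82e-08). *Nuf2* of the outer kinetochore ran from 7.90 to 9.59 (median 8.45) in TM+ DCs and from 5.87 to 6.01 (median 5.95) in TM- DCs, and its TM- arrays had an SD of 0.05 (n = 6). *Anln*, the cleavage furrow scaffold anillin, had differences of 1.93, 2.91 and 3.63, *Kif11*, a kinesin that pushes spindle poles apart, 1.99, 2.67 and 3.44, and *Aurka*, Aurora kinase A of the centrosome, 1.77, 1.77 and 2.41. *Cenpe*, a kinetochore motor, had differences of 1.17, 2.64 and 3.64 that varied between experiments (adjusted p = 1.51e-05). *Rrm2*, a subunit of the reductase that makes deoxynucleotides, was 5.5-fold higher, *Mcm6* of the replicative helicase 4.04-fold, and *Asf1b*, a histone chaperone of replication, 6.21-fold. The differences of *Rrm2* were 2.16, 2.51 and 2.71, and they did not pass the test of variation between experiments (adjusted p = 0.511).

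Promoters of cell division genes are shown for 4 genes that rose, because their lists held CCAAT motifs more often than promoters at large. CCAAT is the element bound by NF-Y, and CHR, the cell cycle homology region, was searched as TTTGAA or TTCGAA, both motifs on either strand, in the 250 bases before each RefSeq start (GRCm38.p6). CCAAT was found in 64% of 25 promoters of the spindle list, 69.2% of 26 of the kinetochore list, 63.6% of 33 of the replication list and 61.5% of 13 of the cyclin list, against 34.5% of 19177 promoters of the genes tested. CHR was found in 56%, 15.4%, 18.2% and 30.8% of the same lists, against 14.8%, so that its share lay near that of all genes tested in the kinetochore and replication lists. Both motifs were found in 44%, 15.4%, 15.2% and 30.8%, against 5.35%. Each motif alone was also frequent in some of the other lists searched. CCAAT ran there from 0% to 66.7%, the latter for 12 promoters of class II presentation genes. It was in 64% of 25 promoters of cholesterol synthesis and uptake, a list with 4 genes higher and 3 lower of 23. CHR ran from 0% to 34.8%, with 29.4% of 17 promoters of DC maturation and migration, where 18 of 27 genes were lower. A match is a description of letters and not a site shown to be bound. The 150 bases before the start are printed with CCAAT and CHR motifs in capitals, on the strand of the gene, for *Ccnb2* (chr9:70421555-70421704, minus strand), *Cdk1* (chr10:69352913-69353062, minus strand), *Top2a* (chr11:99024190-99024339, minus strand) and *Kif11* (chr19:37376232-37376381, plus strand).
Ccnb2: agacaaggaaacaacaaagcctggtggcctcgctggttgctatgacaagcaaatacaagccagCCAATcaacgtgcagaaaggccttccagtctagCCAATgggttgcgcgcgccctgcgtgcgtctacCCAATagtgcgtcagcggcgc
Cdk1: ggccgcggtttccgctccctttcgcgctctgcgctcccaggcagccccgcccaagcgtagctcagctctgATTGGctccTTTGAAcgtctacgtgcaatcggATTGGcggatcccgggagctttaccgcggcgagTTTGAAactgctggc
Top2a: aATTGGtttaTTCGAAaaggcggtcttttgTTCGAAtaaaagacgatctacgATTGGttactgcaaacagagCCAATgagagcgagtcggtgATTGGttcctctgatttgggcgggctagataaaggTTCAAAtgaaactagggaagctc
Kif11: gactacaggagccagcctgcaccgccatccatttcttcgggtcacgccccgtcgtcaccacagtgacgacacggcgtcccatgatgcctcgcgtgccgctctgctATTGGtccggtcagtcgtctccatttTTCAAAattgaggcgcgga
These windows hold 3 CCAAT motifs in *Ccnb2*, 2 CCAAT and 2 CHR in *Cdk1*, 4 and 3 in *Top2a*, and 1 and 1 in *Kif11*.

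Growth genes rose beside them. *Myc*, a transcription factor of growth and ribosome production, ran from 9.52 to 10.58 (median 10.15) in TM+ DCs and from 7.44 to 8.64 (median 7.82) in TM- DCs. The groups did not overlap, the differences were 2.57, 1.17 and 2.75, and the log2 fold change was 2.16 (SE 0.25, adjusted p = 3.67e-06). Ribosome biogenesis genes were higher for 19 of 27 and lower for none (medians 0.56, 0.42 and 1.13), 22 without experiment 3 and 11 without experiment 4. *Nop58*, a core protein of box C/D particles that methylate ribosomal RNA, was 4.11-fold higher, and *Dkc1*, the pseudouridine synthase dyskerin, 3.4-fold. Experiment means called none of the 27, and 17 at an unadjusted p under 0.05.

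Amino acid supply genes were split. Of 21 genes of the amino acid stress response 11 were higher and 4 lower, with medians of 0.49, 0.05 and 0.70, and 6 were higher without experiment 2 and 5 without experiment 4. *Asns*, asparagine synthetase, had differences of 2.60, 0.63 and 2.57 and a log2 fold change of 1.93 (SE 0.39, adjusted p = 0.00109), a call that was lost without experiment 2 (1.60, adjusted p = 0.0621). *Psat1* of serine synthesis and *Shmt2*, which takes a carbon unit from serine in mitochondria, had differences of 2.42, 0.75 and 1.90 and 1.67, 0.98 and 2.45. *Atf3*, a stress-induced transcription factor of the same list, went the other way. It ran from 10.18 to 12.38 (median 10.52) in TM+ DCs and from 12.49 to 12.88 (median 12.56) in TM- DCs, without overlap, and fell 3.01-fold.

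DC maturation genes were lower in TM+ DCs. Of 27 measured genes of maturation and migration 18 were called lower and 1, *Anxa3*, higher, with medians of -0.48, -0.52 and -1.28 in experiments 2, 3 and 4. The count lower was 17 without experiment 3 and 11 without experiment 4, and experiment means called none, with 16 lower at an unadjusted p under 0.05. *Cd83*, a surface marker of mature DCs, ran from 9.03 to 11.19 (median 9.18) in TM+ DCs and from 11.24 to 11.84 (median 11.75) in TM- DCs. The groups did not overlap, with differences of -2.08, -0.74 and -2.71 and a log2 fold change of -1.84 (SE 0.30, adjusted p = 0.000134). *Cd40*, the receptor by which T cells license DCs, ran from 7.68 to 10.26 (median 8.27) in TM+ DCs and from 9.48 to 11.48 (median 10.65) in TM- DCs, overlapping across experiments, with differences of -1.25, -1.23 and -2.92.

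The B7 molecules, which costimulate T cells, were also lower. *Cd80* had differences of -1.30, -0.22 and -1.08 and a log2 fold change of -0.87 (SE 0.19, adjusted p = 0.00259), and the call was lost without experiment 4 (-0.76, adjusted p = 0.0812). *Cd86* had differences of -0.68, -0.83 and -0.43 and was 1.57-fold lower. *Ccr7*, the receptor for migration to lymph nodes, had differences of -0.52, -0.28 and -2.40 and a log2 fold change of -1.07 (SE 0.26, adjusted p = 0.00581). Without experiment 4 its value was -0.40 (adjusted p = 0.188). *Traf1*, an adaptor of tumour necrosis factor receptors, ran from 7.23 to 9.49 (median 8.99) in TM+ DCs and from 10.35 to 10.83 (median 10.43) in TM- DCs, without overlap, and its log2 fold change of -1.94 (SE 0.30, adjusted p = 8.86e-05) moved to -1.18 without experiment 4. *Cd200*, the ligand of an inhibitory myeloid receptor, fell 3.98-fold, with differences of -1.49, -1.15 and -3.34 and a log2 fold change of -1.32 without experiment 4.

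Among MHC class II presentation genes 4 of 13 were higher and 1 lower, and among class I genes 5 of 15 were lower and none higher, where 11.6% of all genes tested were higher and 12.4% lower. *H2-DMa*, part of the chaperone that loads peptide on class II, rose with differences of 1.10, 0.84 and 1.25 and a log2 fold change of 1.06 (SE 0.12, adjusted p = 3.27e-06). *H2-Oa*, part of the inhibitor of that chaperone, fell with differences of -0.28, -0.54 and -0.51. In class I, *Tap1*, a subunit of the peptide transporter, had nearly equal differences of -0.79, -0.80 and -0.78, and *H2-Q4*, a nonclassical heavy chain, was 2.53-fold lower. *H2-Q4* lies among near-identical class I genes whose probes may share signal.

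Inflammatory cytokines were lower where they were called. Of 27 measured 14 were lower and none higher, with medians of -0.15, -0.53 and -1.35, 15 lower without experiment 3 and 7 without experiment 4. *Il12a*, the p35 subunit of interleukin-12, ran from 6.68 to 9.23 (median 7.10) in TM+ DCs and from 8.61 to 10.47 (median 10.23) in TM- DCs. The groups overlapped across experiments but not within any, with differences of -1.57, -1.05 and -3.55 and a log2 fold change of -2.06 (SE 0.32, adjusted p = 8.02e-05), or -1.31 without experiment 4. *Il12b*, the p40 subunit, ran from 5.86 to 11.43 (median 6.30) in TM+ DCs and from 7.96 to 12.37 (median 10.53) in TM- DCs, and its differences of -1.81, -0.57 and -4.55 gave a log2 fold change of -2.31 (SE 0.72, adjusted p = 0.0243). That call was lost without experiment 2 (-2.56, adjusted p = 0.0659), without experiment 4 (-1.19, adjusted p = 0.244), and without either TM+ array of experiment 4 or the TM+ array 2-1 (-2.20 to -1.84).

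*Il6* rested on experiment 4. It ran from 8.92 to 11.28 (median 10.72) in TM+ DCs and from 10.88 to 12.88 (median 11.70) in TM- DCs, with differences of -0.48, -0.29 and -3.81. The log2 fold change of -1.53 (SE 0.42, adjusted p = 0.0123) became -0.39 without experiment 4 (adjusted p = 0.241). *Il1f6*, or interleukin-36 alpha, had differences of -0.15, -1.201 and -4.49, and its log2 fold change of -1.95 became -0.67 without experiment 4 (adjusted p = 0.227). *Tnf*, the central inflammatory cytokine, was not called and had differences of opposite sign, 1.57, -1.01 and -1.35. Its log2 fold change of -0.26 (SE 0.35, adjusted p = 0.578) was 0.11 without experiment 3, 0.28 without experiment 4 and -1.18 without experiment 2, where it was called (adjusted p = 0.00513).

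Chemokines were lower for 11 and higher for 2 of 27 (medians -0.15, -0.21 and -0.53), 10 lower without experiment 3 and 5 without experiment 4. Neutrophil attractants were among those lower. *Cxcl1* ran from 7.59 to 10.63 (median 9.97) in TM+ DCs and from 11.01 to 12.19 (median 12.04) in TM- DCs, and all 6 TM+ arrays lay below all 6 TM- arrays. Its differences of -1.48, -1.11 and -4.58 varied between experiments (adjusted p = 7.12e-08), and the log2 fold change of -2.39 (SE 0.42, adjusted p = 0.000301) was -1.30 without experiment 4. *Cxcl2* and *Cxcl5*, of the same receptor, had differences of -0.94, -0.44 and -2.63 and -1.22, -0.88 and -3.33, with log2 fold changes of -1.34 and -1.81 that became -0.69 and -1.05 without experiment 4. *Ccl6*, a macrophage chemokine, rose 1.56-fold with differences of 0.58, 0.91 and 0.44.

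NF-kappaB is the transcription factor family that drives many of these genes and is held back by inhibitors it induces. Of 23 subunits, inhibitors and targets 18 were lower and none higher, with medians of -0.12, -0.66 and -1.06, 14 lower without experiment 3 and 9 without experiment 4. *Tnfaip3*, whose product A20 shuts the pathway off, ran from 9.52 to 10.62 (median 10.28) in TM+ DCs and from 11.17 to 11.66 (median 11.41) in TM- DCs. The groups did not overlap, and the differences of -0.85, -0.93 and -2.10 gave a log2 fold change of -1.29 (SE 0.16, adjusted p = 7.94e-06). *Nfkbia*, the inhibitor IkappaB alpha, ran from 11.23 to 12.26 (median 12.12) in TM+ DCs and from 12.64 to 12.88 (median 12.74) in TM- DCs, without overlap, with differences of -0.50, -0.53 and -1.64 and a log2 fold change of -0.89 that became -0.52 without experiment 4. *Nfkbib*, IkappaB beta, was 2.27-fold lower. For the cytokine, chemokine and NF-kappaB lists, experiment means called none lower, and 11, 8 and 15 at an unadjusted p under 0.05.

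Interferon-stimulated genes were lower mainly in experiments 3 and 4. Of 25 measured 10 were lower and none higher, but their median difference was 0.07 in experiment 2, -0.85 in experiment 3 and -1.54 in experiment 4. Without experiment 3 13 were lower and without experiment 4 only 4. The count was 4 and 5 without the TM+ arrays 4-1 and 4-2, 6 without the TM- array 3-2, and 3 with no experiment term. It was 16 with array weights and 19 on the 12 arrays alone with experiment as a fixed factor. Experiment means called none, and 12 lower at an unadjusted p under 0.05. Of the list, 21 of 25 varied between experiments by the F test, where 14.4% of all genes did. This was not particular to it: 20 of 27 cytokines, 18 of 23 NF-kappaB genes and 25 of 27 genes of the spindle list also varied. *Irf7*, a regulator of interferon genes, ran from 7.70 to 11.66 (median 10.68) in TM+ DCs and from 11.26 to 12.35 (median 12.002) in TM- DCs, with differences of -1.34, -0.64 and -3.52 and a log2 fold change of -1.84 (SE 0.47, adjusted p = 0.0071), or -0.99 without experiment 4. *Bst2*, or tetherin, which holds viruses at the membrane, ran from 8.63 to 9.96 (median 9.39) in TM+ DCs and from 10.21 to 10.69 (median 10.54) in TM- DCs, without overlap, with differences of -0.79, -1.19 and -1.54 and a log2 fold change of -1.17 (SE 0.23, adjusted p = 0.00102). *Xaf1*, a proapoptotic interferon target, had differences of -1.01, -1.09 and -2.16.

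Promoters of inflammatory genes are shown because the NF-kappaB, chemokine and cytokine lists held kappaB motifs, and the interferon list ISRE motifs, more often than promoters at large. A kappaB motif, the NF-kappaB consensus, was found on either strand in 44% of 25 promoters of the NF-kappaB list, 33.3% of 18 chemokine promoters and 19.2% of 26 cytokine promoters, against 4.33% of promoters of the genes tested. It was also in 23.1% of 13 Fc receptor promoters, a list with 1 gene higher and none lower, and in 11.8% of 17 promoters of the maturation list. The interferon-stimulated response element (ISRE), searched on either strand as a pair of GAAA with 2 free bases between, was found in 41.7% of 24 promoters of interferon-stimulated genes against 2.86%. The lists were drawn up from targets of NF-kappaB and genes that respond to interferon, so these shares are in part set by membership. They describe the lists and not the arrays. The kappaB and ISRE matches are in capitals for *Cxcl1* (chr5:90891095-90891244, plus strand), *Cxcl2* (chr5:90903749-90903898, plus strand), *Nfkbia* (chr12:55492648-55492797, minus strand), *Il6* (chr5:30012964-30013113, plus strand) and *Bst2* (chr8:71537473-71537622, minus strand), again over 150 bases of RefSeq sequence on the strand of the gene.
Cxcl1: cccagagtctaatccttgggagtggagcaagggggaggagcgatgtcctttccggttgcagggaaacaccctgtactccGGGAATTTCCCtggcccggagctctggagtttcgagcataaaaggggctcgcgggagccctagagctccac
Cxcl2: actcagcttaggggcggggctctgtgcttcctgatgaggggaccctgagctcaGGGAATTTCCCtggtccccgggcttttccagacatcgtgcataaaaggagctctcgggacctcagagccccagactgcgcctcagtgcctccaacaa
Nfkbia: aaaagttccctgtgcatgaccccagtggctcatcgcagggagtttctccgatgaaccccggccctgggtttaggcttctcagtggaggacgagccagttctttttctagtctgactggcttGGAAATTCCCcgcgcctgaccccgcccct
Il6: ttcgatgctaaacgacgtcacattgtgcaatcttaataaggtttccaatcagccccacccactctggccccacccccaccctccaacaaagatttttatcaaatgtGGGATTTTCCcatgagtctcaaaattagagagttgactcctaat
Bst2: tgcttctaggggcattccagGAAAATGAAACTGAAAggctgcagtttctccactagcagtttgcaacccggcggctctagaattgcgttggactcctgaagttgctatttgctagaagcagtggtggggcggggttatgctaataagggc
In *Cxcl1* and *Cxcl2* the capitals mark 2 overlapping kappaB matches with the same letters, in *Nfkbia* and *Il6* 1 kappaB match each, and in *Bst2* 2 overlapping ISRE matches. The differences of *Cxcl1*, *Il6* and *Bst2* were -4.58, -3.81 and -1.54 in experiment 4, and -1.11, -0.29 and -1.19 in experiment 3.

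**Figure D3:**
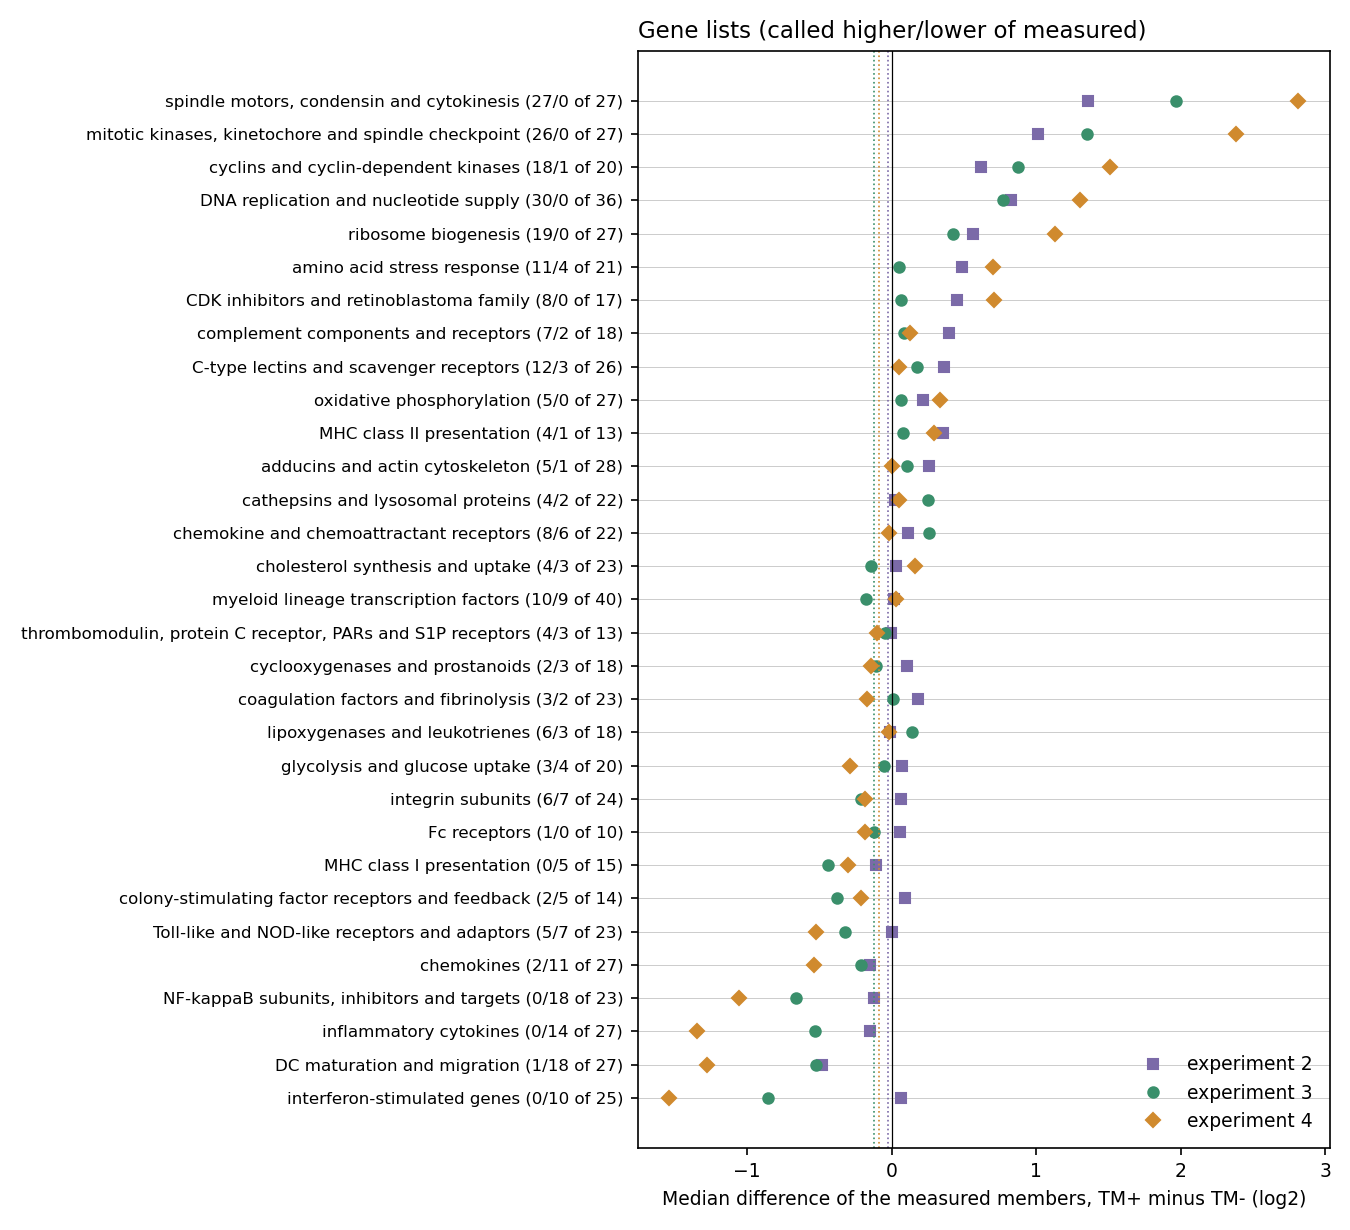
Median difference between TM+ and TM- DCs (log2) of the measured members of each gene list in experiments 2 (squares), 3 (circles) and 4 (diamonds), with dotted lines at the median of all genes and, beside each name, how many members were called higher and lower. Cell division and ribosome lists lie right of 0 in the 3 experiments, and the interferon list runs from 0.07 in experiment 2 to -1.54 in experiment 4.

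Sensors and uptake receptors moved in both directions. Of 23 Toll-like and NOD-like receptors and adaptors 5 were higher and 7 lower, where 11.6% of all genes tested were higher and 12.4% lower. *Tlr8*, an endosomal receptor for RNA, ran from 9.54 to 10.21 (median 9.62) in TM+ DCs and from 7.14 to 8.98 (median 7.52) in TM- DCs, without overlap, and was 3.7-fold higher with differences of 2.26, 0.65 and 2.75. C-type lectins and scavenger receptors were higher for 12 of 26 and lower for 3. Besides *Mrc1* and *Clec4b1*, *Clec5a*, an activating lectin of myeloid cells, rose 3.51-fold with differences of 2.45, 1.27 and 1.71. *Ly75*, or DEC-205, an uptake receptor that rises on mature DCs, fell with differences of -0.88, -0.85 and -1.21 and a log2 fold change of -0.98 (SE 0.13, adjusted p = 2.2e-05). *Clec4e*, or Mincle, a receptor for mycobacterial lipid, had differences of -0.40, -0.40 and -2.55 and a log2 fold change of -1.11, or -0.40 without experiment 4.

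Receptors for chemoattractants were also split, with 8 of 22 higher and 6 lower, against 11.6% and 12.4% of all genes tested. *Cysltr1*, the receptor for cysteinyl leukotrienes, ran from 10.20 to 10.94 (median 10.73) in TM+ DCs and from 7.80 to 9.97 (median 9.30) in TM- DCs, without overlap, and was 2.99-fold higher. *Cxcr2*, the receptor for CXCL1 and CXCL2, had differences of 0.44, 1.90 and 2.88 and a log2 fold change of 1.74 (SE 0.35, adjusted p = 0.0011), and is also a neutrophil marker. *Cxcr5*, which guides cells to B cell follicles, fell 2.61-fold with differences of -0.95, -0.96 and -2.23. Among receptors for sphingosine 1-phosphate, *S1pr3* fell and *S1pr1* rose. *S1pr3* ran from 7.32 to 9.67 (median 7.89) in TM+ DCs and from 9.37 to 11.26 (median 10.49) in TM- DCs, with differences of -1.84, -1.32 and -2.60 and a log2 fold change of -1.92 (SE 0.25, adjusted p = 1.17e-05). *S1pr1*, which guides exit from lymphoid tissue, had differences of 1.26, 0.29 and 1.01, and its log2 fold change of 0.85 (SE 0.21, adjusted p = 0.00616) was not called without experiment 4 (0.77, adjusted p = 0.0543).

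Unlike *Thbd*, other genes of the protein C system, in which TM acts, were called. *Procr*, the endothelial protein C receptor, ran from 9.33 to 11.31 (median 10.08) in TM+ DCs and from 11.88 to 12.50 (median 12.09) in TM- DCs, without overlap, and its differences of -2.41, -0.76 and -2.51 gave a log2 fold change of -1.89 (SE 0.26, adjusted p = 2.48e-05). *Pros1*, the cofactor protein S, rose with differences of 1.78, 1.15 and 1.58 and a log2 fold change of 1.505 (SE 0.17, adjusted p = 2.34e-06). *F2rl2*, the thrombin-binding receptor PAR3, was 1.98-fold higher. Of 13 genes of this list 4 were higher and 3 lower, where 11.6% of all genes tested were higher and 12.4% lower.

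Of 23 coagulation and fibrinolysis genes 3 were higher and 2 lower, near the shares of all genes tested (11.6% higher and 12.4% lower). *F5*, coagulation factor V, ran from 7.55 to 9.56 (median 9.24) in TM+ DCs and from 5.71 to 6.80 (median 6.64) in TM- DCs, without overlap, and rose 5.29-fold with differences of 2.53, 2.81 and 1.87. *Plat*, tissue plasminogen activator, was dim and fell with differences of -0.73, -0.71 and -1.17. *F3*, tissue factor, which starts coagulation, had differences of 0.53, -0.96 and -4.54, and the variation between experiments passed the test (adjusted p = 1.02e-08). Its log2 fold change of -1.66 (SE 0.51, adjusted p = 0.0215) was not called without experiment 3 (-2.01, adjusted p = 0.0511), without experiment 4 (-0.21) or without any single array of experiment 4 (-1.39 to -1.28).

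Lipid mediator genes were called in both directions. Of 18 genes of lipoxygenases and leukotrienes 6 were higher and 3 lower, and of 18 genes of cyclooxygenases and prostanoids 2 were higher and 3 lower. The counts of the latter list lay near the shares of all genes tested, 11.6% higher and 12.4% lower. Besides *Alox15*, *Alox5*, the 5-lipoxygenase that starts leukotriene synthesis, ran from 11.38 to 11.74 (median 11.43) in TM+ DCs and from 9.47 to 10.98 (median 10.26) in TM- DCs, without overlap, and rose 2.44-fold with differences of 1.93, 0.49 and 1.45. *Alox12*, the platelet-type lipoxygenase, fell with differences of -0.82, -1.04 and -0.97 and a log2 fold change of -0.94 (SE 0.21, adjusted p = 0.00263). *Tbxas1*, thromboxane synthase, varied least between arrays among the lipid mediator genes named here. It ran from 10.84 to 11.07 (median 10.90) in TM+ DCs and from 9.88 to 10.04 (median 9.94) in TM- DCs, and its log2 fold change was 0.96 (SE 0.07, adjusted p = 5.5e-09). *Ptgs2*, the inducible cyclooxygenase COX-2, ran from 7.84 to 12.98 (median 11.26) in TM+ DCs and from 12.60 to 13.72 (median 13.28) in TM- DCs, with differences of -1.89, -0.10 and -5.79 and a log2 fold change of -2.59 (SE 0.66, adjusted p = 0.0072). Without experiment 4 it was -0.99. *Ptges*, the prostaglandin E synthase induced with it, fell with differences of -2.06, -0.89 and -4.42, a log2 fold change of -2.45, and -1.47 without experiment 4.

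Complement genes were higher for 7 of 18 and lower for 2, against 11.6% and 12.4% of all genes tested. *C1qb* and *C1qc*, chains of C1q made by macrophages and DCs, were 2.67-fold and 2.38-fold higher, without overlap, with differences of 0.92, 1.37 and 1.95 and 1.14, 0.67 and 1.95. *Cfb*, factor B of the alternative pathway, fell 2.7-fold.

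Adhesion and cytoskeleton genes were mixed. *Add3*, adducin 3 of the spectrin and actin network, ran from 9.98 to 10.64 (median 10.41) in TM+ DCs and from 7.77 to 9.18 (median 8.34) in TM- DCs, without overlap, and its differences of 2.67, 1.35 and 1.71 gave a log2 fold change of 1.91 (SE 0.17, adjusted p = 8.8e-08). Only 5 of 28 adducin and actin genes were higher and 1 lower, and *Add1* and *Add2* were not called. Of 24 integrin subunits 6 were higher and 7 lower. For both lists the shares over all genes tested were 11.6% higher and 12.4% lower. *Itga1*, a subunit of a collagen receptor, rose with differences of 1.90, 1.06 and 1.67. *Itgb8*, of the receptor that frees active TGF-beta, fell with differences of -1.36, -1.21 and -4.42, and *Itgb3*, of the vitronectin receptor, with -1.500, -0.47 and -3.00. The log2 fold changes of *Itgb8* and *Itgb3*, -2.33 and -1.65, became -1.29 and -0.98 without experiment 4.

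Transcription and cytokine signalling followed no single direction. Of 40 myeloid transcription factors 10 were higher and 9 lower, where 11.6% of all genes tested were higher and 12.4% lower. *Cebpe*, a factor of granulocyte maturation that is also in the neutrophil marker list, was 2.19-fold higher. *Stat5a*, which carries the GM-CSF signal, fell with differences of -0.98, -0.83 and -2.09, and *Stat4*, which carries that of interleukin-12, with -1.17, -0.83 and -2.71 and a log2 fold change of -1.57, or -1.004 without experiment 4. *Socs3*, a feedback inhibitor of cytokine signalling, had differences of -0.67, -0.92 and -2.16 and a log2 fold change of -1.25, or -0.79 without experiment 4. *Kit*, the receptor for stem cell factor, fell with like differences of -0.73, -1.13 and -0.85 and a log2 fold change of -0.90 (SE 0.14, adjusted p = 0.000106).

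Several granulocyte genes had their largest differences in experiment 2. *Epx*, eosinophil peroxidase, had differences of 3.22, -0.52 and 1.75, and *Prg2*, the major basic protein of eosinophils, 3.57, -0.68 and 0.97. The neutrophil gene *Ly6g* had differences of 2.54, -0.15 and 1.40. Their log2 fold changes of 1.48, 1.29 and 1.26 were 0.61, 0.15 and 0.62 without experiment 2, 1.35, 1.45 and 1.19 without experiment 4 (in neither case called), and 2.48, 2.27 and 1.97 without experiment 3. The call of *Prg2* was also lost without any single array of experiment 2 or 4 (0.98 to 1.35). *S100a8*, a subunit of calprotectin, and *Ngp*, a granule protein, were higher in the 3 experiments, by 2.81, 0.41 and 1.76 and 2.46, 0.85 and 1.71, and were not called without experiment 2 (1.09 and 1.28). The part of other cells in the sorting results was not tested.

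Several short lists changed their counts by over 1.5 times when an experiment was left out. Without experiment 2, conventional DC markers had 3 members higher and neutrophil and granule genes 3 higher and 3 lower, and the marker list of eosinophils, mast cells and basophils had 2 higher. In the same setting adducin and actin genes had 1 higher, Toll-like and NOD-like receptors 2 higher, class II presentation genes 2 higher, C-type lectins and scavenger receptors 6 lower and coagulation genes 4 lower. Prostanoid genes had 1 higher without experiment 2 or 4 and 4 higher without experiment 3. Without experiment 3, adducin and actin genes had 8 higher, and Fc receptors had 2 higher and 2 lower, against none called without experiment 2 or 4. Without experiment 4, conventional DC markers had 4 higher, class II presentation genes 1 higher, Toll-like and NOD-like receptors 3 higher, adducin and actin genes 2 higher, chemoattractant receptors 2 lower, and coagulation, complement and lipoxygenase genes 1 lower each.

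Whether the difference itself varied among experiments was tested on the 12 arrays. It did for 2870 genes (14.4% of those tested, 27.0% at an unadjusted p under 0.05), of which 1419 were also called over the 3 experiments and 1203 of these had the same sign throughout. Of the 2870 genes, 1555 did not have the same sign in the 3 experiments. Of the 6 genes with the smallest p, *F3*, *Kcnma1*, *Saa3*, *Hp* and *Vcan* had differences of both signs, and *Ptgs2* was lower in each experiment. *Kcnma1*, a calcium-activated potassium channel, had differences of 0.05, 4.94 and -0.26 (adjusted p = 1.02e-08). *Saa3*, an acute phase protein, had 0.15, -0.30 and -5.84, *Hp*, haptoglobin, 2.96, -0.90 and -1.996, and *Vcan*, the matrix proteoglycan versican, 1.18, -0.77 and -3.01. *Ccl5*, a chemokine for T cells, had -1.80, 0.23 and -3.55. The log2 fold change of *Ccl5*, -1.71 (SE 0.47, adjusted p = 0.0119), was not called without experiment 2 (-1.66) or without experiment 4 (-0.79), and was -2.68 without experiment 3.

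**Figure D4:**
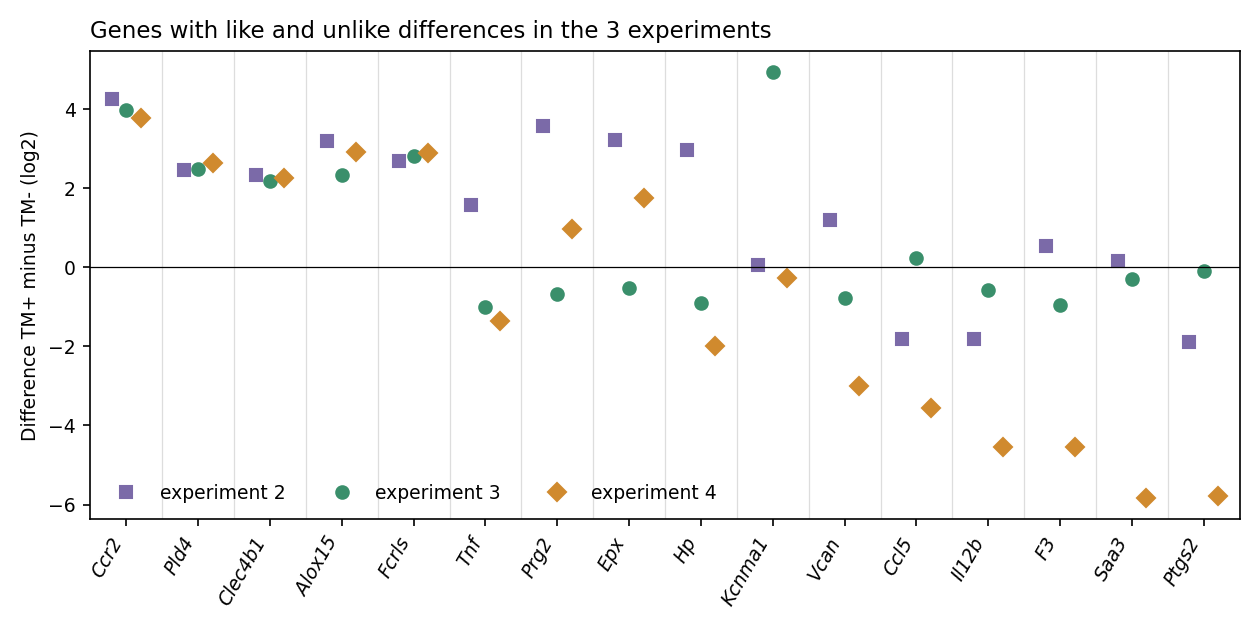
Difference between TM+ and TM- DCs (log2) in experiments 2 (squares), 3 (circles) and 4 (diamonds) for 16 genes. *Ccr2*, *Pld4*, *Clec4b1* and *Fcrls* lie close together above 0, and *Alox15* runs from 2.34 to 3.19. *Hp* runs from 2.96 to -1.996 and *Kcnma1* is high in experiment 3 alone, at 4.94.

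The calls of any 2 experiments were read in the one left out. Genes called higher in experiments 3 and 4 were higher in experiment 2 for 84.4% of 2202, and genes called lower were lower for 73.9% of 1826, where 46.6% and 53.4% of all genes had those signs. With experiment 3 left out the shares were 79.4% of 2927 and 85.3% of 2074, against 32% and 68%. With experiment 4 left out they were 97.3% of 1151 and 95.5% of 755, against 38.9% and 61.1%. The differences were smaller than in the calling experiments when experiment 2 was left out (median ratio 0.62 for higher and 0.45 for lower genes) or experiment 3 (0.39 and 0.48), and larger when experiment 4 was (1.40 and 1.38).

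**Figure D5:**
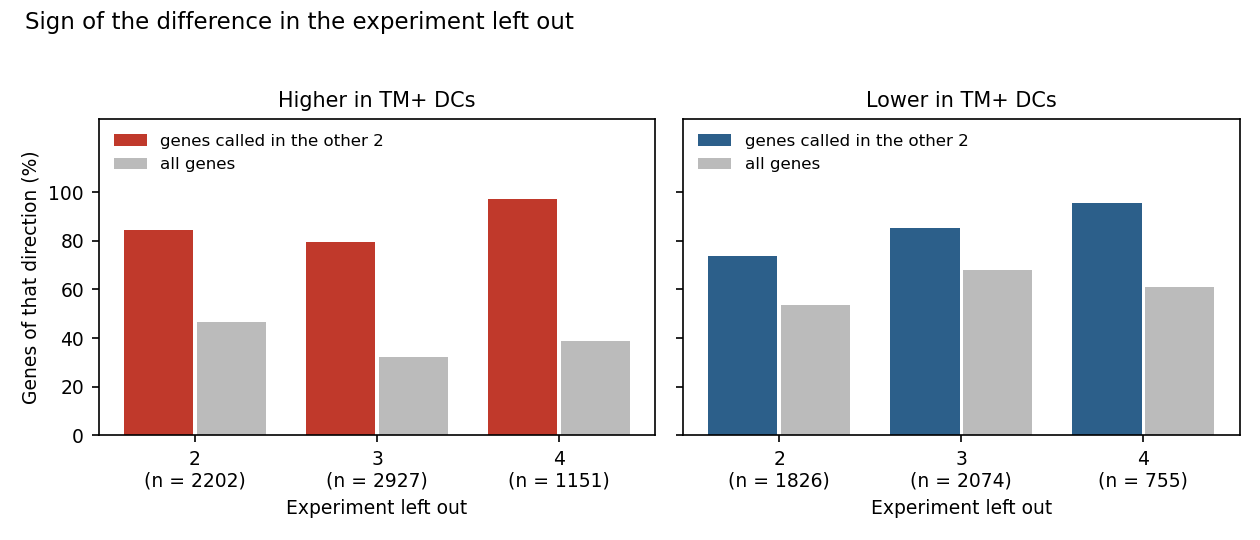
Share of genes (%) with the same sign of the difference in the experiment left out, for genes called in the other 2 experiments (coloured bars) and for all genes (grey bars), by direction. Experiment 4 has the largest shares, 97.3% and 95.5%, and the lowest is 73.9%, for lower genes in experiment 2.

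Against untreated cultures, the test of the difference in sorting effect called 2 genes (0.0100% of those tested, and 1227 or 6.15% at an unadjusted p under 0.05). *Gcsam*, a signalling adaptor of germinal centre B cells, differed by -0.02 between TM+ and TM- DCs with sTM and by 1.28 without it (interaction -1.30, SE 0.16, adjusted p = 0.00122). *Srebf2*, the master regulator of cholesterol synthesis genes, had -0.24 with sTM and 0.63 without it (interaction -0.86, SE 0.13, adjusted p = 0.0234). *Hmgcs1*, an enzyme of that synthesis, had -0.26 and 0.79, and *Fhdc1*, a formin, 0.23 and 1.76. Neither *Hmgcs1* nor *Fhdc1* passed the test (adjusted p = 0.109 and 0.0516). Without sTM 2623 genes were called higher (13.2%) and 1582 lower (7.93%). Both kinds of culture called 1742 genes higher (8.74%) and 1045 lower (5.24%), and 1 gene (0.00502%) in opposite directions, *Srebf2*, in comparisons with separate arrays but shared experiments and one model. Nothing else was shown to be particular to sTM-treated cultures.

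Of 40 genes that the study names, 37 were measured here. Of these 10 were higher and 12 lower, and 15 were not called, with log2 fold changes of -0.44 to 0.50. Those not called included *Thbd*, *Tnf*, *Il10*, *H2-Ab1*, *H2-Eb1*, *Ptges2*, *Ptges3*, *Add1*, *Add2*, *Rb1* and *Cxcr4*. Because the study named its genes from these samples, their counts are no independent evidence of direction.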

How the data were processed

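RNA of 36 cultures or sorted fractions was hybridized to Affymetrix Mouse Gene 1.0 ST arrays. The authors ran RMA (APT 1.12.0, NetAffx release 31) and deposited linear intensities of 35556 transcript clusters. The sources used here do not say whether RMA took all arrays in a single run. RMA gives jointly normalized arrays one distribution of probe intensities, so that a shift of all transcripts would not be seen.

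Here log2 of the deposited intensities was used, without further scaling, filter or detection calls, so that dim genes were not separated from background. Of the clusters, 21789 had exactly 1 symbol, 1621 several and 12146 none. A symbol was represented by its brightest cluster (mean of 36 arrays), leaving 19938 genes. Of these, 19856 gene IDs matched the RefSeq table and 999 had more than 1 cluster. Promoters of RefSeq (GRCm38.p6) were matched by symbol for 15614 of these genes.

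The 20 arrays of sorted DCs were fitted with limma 3.58.1 (statmod 1.5.0, R 4.3.3) as 4 groups with experiment as a random block, whose estimated correlation was 0.396, and the contrast was TM+ minus TM- DCs in sTM-treated cultures. The variation of this contrast between experiments was tested by limma's F test on the 12 arrays, and the difference from untreated cultures as an interaction. The number of arrays limits the precision. Gene lists are described by counts and medians. Alternatives were the 12 arrays alone, a fixed experiment factor, a fit with no term for experiment, a replicate block, experiment means, removal of dim genes (mean under the 25th percentile), all clusters, 75th percentile centring, quantile normalization, trend and robust variances, array weights, and omission of single arrays or of an experiment. Fits were first run on simulated data. For the sorting contrast the simulated effect was equal in every experiment, so that run did not cover effects that vary between experiments. Python 3.11.15 with numpy 2.4.6, pandas 2.3.3 and matplotlib 3.10.9 made the counts and figures.

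The members and lists were chosen with earlier results of these data known. Genes were named by a rule: genes the study names; the 12 largest rises and falls by the smallest of the 3 within-experiment differences; up to 3 called members per list and direction; the 6 genes that varied most between experiments; 4 called genes of unlike sign; and the 4 smallest interaction p-values. The text names some of these. *Hamp*, *Aurka*, *Cxcl2*, *Nfkbia*, *Ly6g* and *Itgax* were chosen after their values were seen. Genes of the study with no cluster of their own were not analysed here.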

Additional observations from a re-analysis of the deposited data

Results flagged for a closer look

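Of 232 groups of 6 arrays looked at (the TM+ and TM- arrays of each named gene), 4 held an array far from the other 5. The cutoff would flag about 1 in 20 groups of 6 independent arrays. Each group here held 2 arrays from each of 3 experiments, so that rate does not apply and the count was not set against chance. All 4 were TM- arrays of experiment 3. *Ccl6* was lowest in TM- array 3-2, at a level of 11.78 against 13.03 for the nearest array. *Ccl5* was lowest in the same array, at 13.04 against 13.75. *Mrc1* was lowest in TM- array 3-1, at 5.64 against 6.04, and *Itgax* highest there, at 12.21 against 11.84.

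The sorting difference in sTM-treated cultures minus that in untreated cultures passed limma's interaction test for *Gcsam* (-1.30) and *Srebf2* (-0.86).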

How the results depend on the processing

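Of 106 named genes called, 31 were called under every alternative and 89 under every alternative but experiment means, and none of the 106 changed sign. Counts of genes higher and lower (2311 and 2481) moved by over 1.5 times without an experiment term (1261 and 1035), over experiment means (112 and 12), with array weights (3750 and 3750) and without experiment 4 (1136 and 768). Leaving out single arrays gave 1732 to 2614 higher and 1608 to 2811 lower, lowest without TM+ array 4-1. The replicate block gave 1988 and 2176. Same-numbered deviations correlated at 0.036, -0.201 and 0.237 in experiments 2, 3 and 4. With 2 arrays per fraction and experiment, these values cannot decide whether the numbers paired the samples. Genes varying between experiments (2870) were 1253 without experiment 2 and 707 without experiment 4, where fewer arrays were tested. The interaction count of 2 was 1 with the replicate block, 4 with experiment as a fixed factor and 1 without experiment 2. With the filter on dim genes, 4413 genes were lower in the 3 experiments instead of 6869, an alternative chosen after seeing the data, as were experiment as a fixed factor for the 20 arrays and the counts of list members under each alternative. *Thbd*, not called, ran from -0.012 to 0.14 without single arrays, below 0 without TM- array 3-1 (-0.012) or TM+ array 4-1 (-0.0090), and was -0.047 without experiment 4, and *Tnf*, not called, changed sign without experiment 3 (0.11) or experiment 4 (0.28). The causes were not tested.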
